A study of Mus musculus with 9 samples.

Results

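The genes described are the chemokine ligands and chemokine receptors of mouse macrophages, 50 of the 18193 genes with a probe set of their own on the array. They were taken by symbol, as every Ccl, Cxcl, Ccr or Cxcr gene with a number, plus Cx3cl1, Cx3cr1, Xcl1, Xcr1 and Ackr3, and each gene was read from the probe set with the highest mean over the 9 arrays. They comprised 33 ligands and 17 receptors. A gene was called bright when its mean was at or above the median over all genes, a log2 signal of 6.82, and dim otherwise. That rule split the 50 members into 25 bright ones (20 ligands and 5 receptors) and 25 dim ones. The members nearest to the threshold were Cx3cr1, bright with a mean of 7.15, and Cx3cl1, dim with a mean of 6.61.

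The cells were bone marrow derived macrophages of C57BL6 mice aged 6 to 12 weeks, grown with conditioned medium of L929 cells, kept without it from the day before use and treated on culture day 6. All cells, the controls included, received 33 ng/mL lipopolysaccharide (LPS, a bacterial cell wall component) for 3 h before the second agent was added for 6 h. In the LPS+TMT group that agent was 1.25 µM trimethyltin hydroxide, in the LPS+TET group 10 µM triethyltin bromide, and in the LPS group sterile saline, with 3 arrays a group; values given below as with saline are those of the LPS group. No group without LPS was among these samples, so the change that LPS itself makes in these genes was not measured. The labels call the arrays biological replicates but do not say whether each came from a separate mouse, so the p-values rest on the spread between these 3 arrays a group, which may be technical. Both organotin groups are set against the same 3 LPS arrays, and because the compounds were given at different doses their values are placed side by side without a test between them. In whole-culture RNA, fewer cells of a type and less RNA per cell cannot be told apart.

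Chemokines are small secreted proteins that steer the migration of leukocytes, and they are grouped as CC, CXC, CX3C and XC proteins by the spacing of their first cysteines. They act through seven-helix receptors coupled to inhibitory G proteins, and most inflammatory ligands share receptors with close relatives. Macrophages that sense LPS through TLR4 switch on many of these ligand genes through NF-kappaB and, for some of them, by way of interferon beta. The same cells carry chemokine receptors of their own, whose levels set which signals they follow.

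The arrays of each group resembled one another closely, with Pearson correlations across genes of 0.994 to 0.998 within LPS+TMT, 0.990 to 0.992 within LPS+TET and 0.997 to 0.998 within LPS (genes are not independent replicates). The LPS+TET arrays had a narrower spread of signals, with an interquartile range of 3.45 to 3.55, against 3.83 to 3.88 on the LPS arrays; the LPS+TMT arrays lay at 3.78 to 3.86. All 8 macrophage markers examined were bright, and their mean log2 signal was 12.3 to 12.6 under TMT, 12.3 to 12.4 under TET and 12.5 to 12.6 with saline. Single macrophage markers went both ways, with 2 that rose and 2 that fell under TMT and 1 that rose and 4 that fell under TET. Of all bright genes, 24.1% rose and 22.1% fell under TMT, and 23.6% rose and 41.3% fell under TET. Of 7 measured neutrophil markers, 4 were bright and 4 fell under each compound, with list means of 7.05 to 7.33 under TMT, 7.07 to 7.20 under TET and 7.57 to 7.74 with saline. The 4 endothelial markers, of which 2 were bright, all rose under TET, with list means of 7.54 to 7.81 against 6.04 to 6.40 with saline. Rises under TET were also called for 3 of 5 T cell, 3 of 4 B cell and 3 of 6 fibroblast markers, and none of these fell. Of all genes, 14.3% rose and 13.4% fell under TMT, and 27.4% rose and 23.4% fell under TET. Among all dim genes 31.2% rose under TET. None of the measured markers of T cells, B cells, dendritic cells, mast cells with eosinophils or erythroid cells was bright, and 1 NK cell and 1 fibroblast marker were. The part of other cell types and of the narrower signal range in the results below was not tested.

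Under TMT, the chemokine genes that changed mostly fell. Of the 25 bright members, 11 fell and 5 rose at an adjusted p under 0.05 (limma, Benjamini-Hochberg over all genes), and 9 did not pass, which makes 64.0% that passed beside 46.2% of all bright genes. Among all bright genes 22.1% fell and 24.1% rose, against 44.0% and 20.0% of the bright members. The median log2 change of the bright members was −0.21, and that of all bright genes was 0.03. A fall of at least 2-fold was seen for 5 bright members (Cxcl1, Cxcl3, Ccl4, Ccl17 and Ccl22) and a rise of that size for 3 (Ccr1, Cxcr4 and Ccl8); of all bright genes, 6.56% fell and 6.57% rose that far. All 3 TMT arrays lay below all LPS arrays for 12 bright members and above them for 8, where the shares over all bright genes were 31.3% and 35.4%. Over all 50 members, 15 fell and 6 rose, or 42.0% in all, where 13.4% of all genes fell and 14.3% rose, 27.8% in all.

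Under TET, 13 of the 25 bright members fell, 4 rose and 8 did not pass. That is 52.0% falling and 16.0% rising, against 41.3% and 23.6% of all bright genes, and in total 68.0% of the bright members passed beside 64.9% of all bright genes. The medians were also close, −0.23 for the bright members and −0.19 for all bright genes. At least 2-fold falls were seen for 6 bright members (Cx3cr1, Ccr2, Ccr3, Ccl22, Cxcl3 and Cxcl11) and 2-fold rises for 3 (Cxcr4, Ccl25 and Ccl8), with 12.3% of all bright genes falling and 8.81% rising that far. Over all 50 members, 17 fell and 12 rose, or 58.0% in all, where 23.4% of all genes fell and 27.4% rose, 50.8% in all. All 3 TET arrays lay below all LPS arrays for 15 bright members and above them for 5, beside 45.8% and 27.3% of all bright genes. When each array was centred on its own median, which lowered the median change of all genes under TET to 0.01 from 0.09, the members split into 19 falls and 8 rises.

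Set side by side, 12 members fell under both compounds and 4 rose under both (Ccl8, Ccl25, Cxcr4 and Ccr1). Cxcl2, Ccl17 and Cxcl14 fell under TMT and did not pass under TET. Ccl2, Ccl7, Ccl9 and Cxcl11 fell under TET and did not pass under TMT. Ccr2 rose under TMT and fell under TET, Ccr7 rose under TMT alone, and 8 dim members rose under TET alone. The remaining 17 members, 5 of them bright, passed in neither comparison. Both comparisons use the same LPS arrays, and how many of all genes had each pair of calls was not counted. Nothing is therefore read from these numbers.

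**Figure D1:**
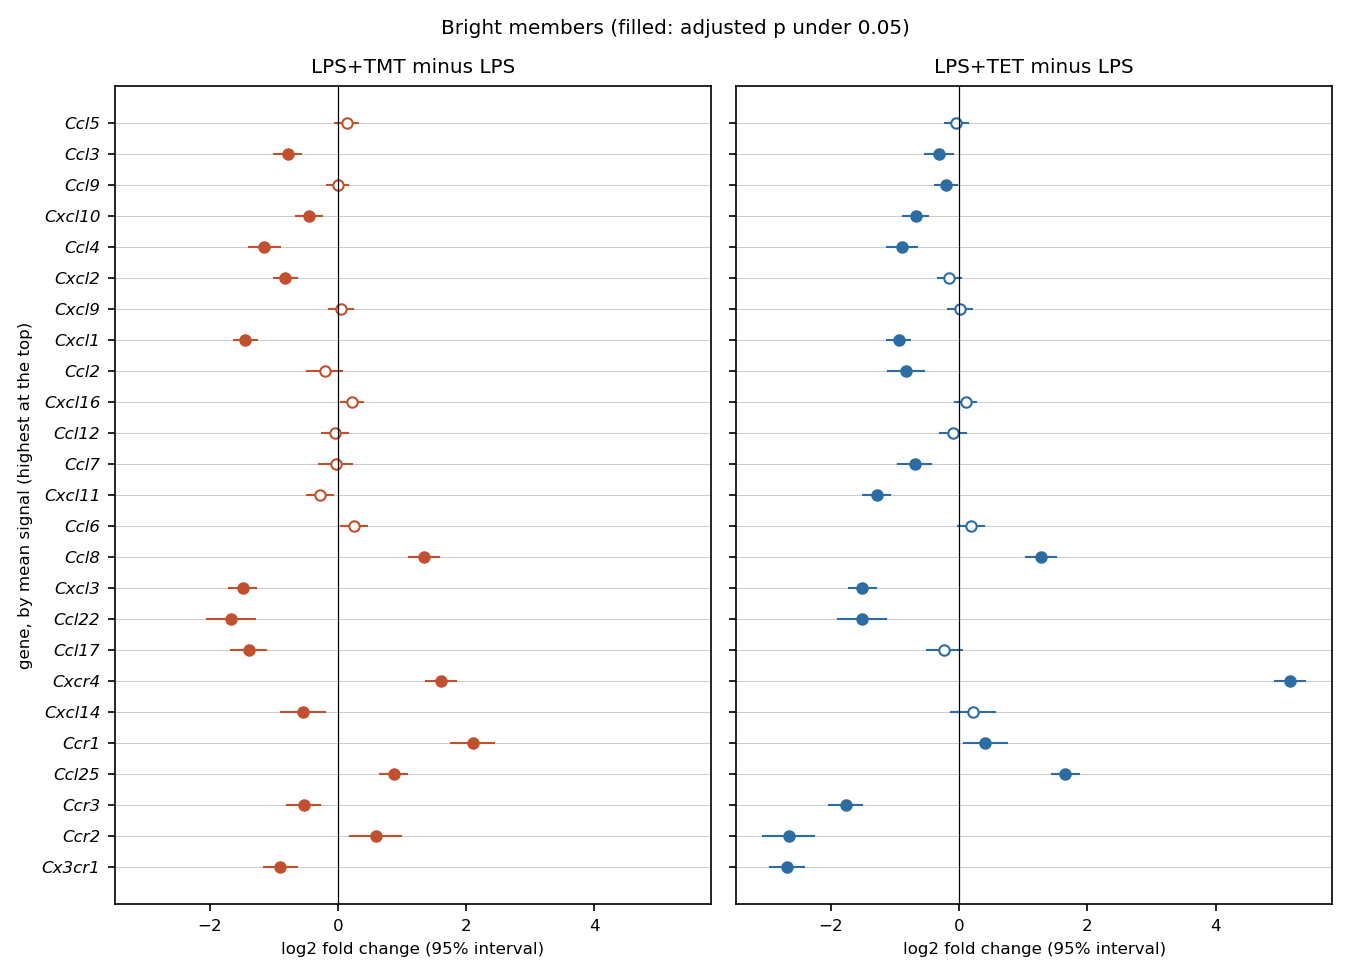
Log2 fold changes of the 25 bright members (x axis, with 95% intervals from the limma fit) for LPS+TMT minus LPS on the left and LPS+TET minus LPS on the right; filled points had an adjusted p under 0.05. The 11 filled points left of 0 under TMT comprise 9 ligands and 2 receptors, while the TET panel is set apart by Cxcr4 at 5.16 and by Ccr2 and Cx3cr1 at −2.66 and −2.68.

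Cxcl1, Cxcl2, Cxcl3 and Cxcl5 encode ligands of CXCR2, the receptor that brings neutrophils to sites of infection. All 4 fell under TMT (median log2 change −1.13), and Cxcl1, Cxcl3 and Cxcl5 fell under TET (median −0.75), where 22.1% and 41.3% of all bright genes fell. Cxcl5 was the dim one of the 4, and of all dim genes 4.72% fell under TMT and 5.62% under TET. Cxcl1, Cxcl2 and Cxcl3 lie near each other on chromosome 5, and their upstream sequences are shown because the same kappaB word recurs in all 3. The windows are the 250 bases before the annotated gene start from RefSeq (GRCm38.p6), chr5:90890995-90891244, chr5:90903649-90903898 and chr5:90785851-90786100, all on the plus strand, with the word in capitals.
Cxcl1: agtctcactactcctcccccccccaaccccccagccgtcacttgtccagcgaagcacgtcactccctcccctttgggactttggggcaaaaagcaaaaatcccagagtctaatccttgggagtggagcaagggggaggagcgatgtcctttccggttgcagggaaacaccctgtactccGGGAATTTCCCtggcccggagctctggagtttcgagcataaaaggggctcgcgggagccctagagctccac
Cxcl2: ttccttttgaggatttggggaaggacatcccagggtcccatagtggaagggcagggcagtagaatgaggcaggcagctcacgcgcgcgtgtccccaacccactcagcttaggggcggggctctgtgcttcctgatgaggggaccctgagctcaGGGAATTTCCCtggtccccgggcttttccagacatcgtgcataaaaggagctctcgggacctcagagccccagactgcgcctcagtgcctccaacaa
Cxcl3: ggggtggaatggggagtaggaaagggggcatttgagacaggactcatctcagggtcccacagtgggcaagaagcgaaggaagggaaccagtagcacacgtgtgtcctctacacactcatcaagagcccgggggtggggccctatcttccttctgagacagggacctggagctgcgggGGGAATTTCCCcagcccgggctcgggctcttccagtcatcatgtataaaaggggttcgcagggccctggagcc
The word searched was GGGANNTTC on either strand, a loose form of the NF-kappaB site. Each of these windows held the run GGGAATTTCCC, in which a match on one strand overlaps a match on the other, and the run spans bases 71 to 61 before the start of Cxcl1, 97 to 87 before Cxcl2 and 73 to 63 before Cxcl3. Of the 37 members with a window in the table, 8 held the word (Cxcl1, Cxcl2, Cxcl3, Cxcl9, Cxcl10, Ccl1, Ccr3 and Cxcr2), as did 3.7% of 27025 genes. A match is a description of the letters, not evidence of binding.

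Cxcl1 had log2 signals of 12.40, 12.36 and 12.29 under TMT and 12.79, 12.90 and 12.88 under TET, against 13.82, 13.77 and 13.81 with saline. Neither treated group overlapped the LPS arrays. The log2 fold changes were −1.45 (SE 0.08, adjusted p = 8.4e-07) and −0.94 (SE 0.08, adjusted p = 7.3e-06), that is 2.73-fold and 1.92-fold lower. The probe set used may bind related transcripts, and the other 2 probe sets of the gene fell as well, with changes of −1.30 and −2.32 under TMT and −0.86 and −1.58 under TET. Cxcl3 read 10.23, 10.30 and 10.14 under TMT and 10.14, 10.22 and 10.23 under TET, against 11.67, 11.61 and 11.85 with saline. Its drop was of like size with both agents, −1.49 (SE 0.09, adjusted p = 1.8e-06) and −1.51 (SE 0.09, adjusted p = 7.5e-07). Cxcl2, by contrast, read 12.75, 12.76 and 12.61 under TMT and 13.33, 13.42 and 13.37 under TET, against 13.50, 13.53 and 13.55 with saline. All treated arrays lay below the LPS arrays, but only the TMT change passed, at −0.82 (SE 0.08, adjusted p = 3.5e-05). The TET change was −0.15 with a 95% interval of −0.33 to 0.03 (adjusted p = 0.15), and it passed with the arrays centred on their medians, at −0.23, and with trended robust moderation. Cxcl5 had means of 2.87 under TMT, 3.04 under TET and 3.60 with saline and fell in both comparisons (−0.73 and −0.56); these values lie below 3.97, the 10th percentile of gene means, and were not shown to be above background.

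**Figure D2:**
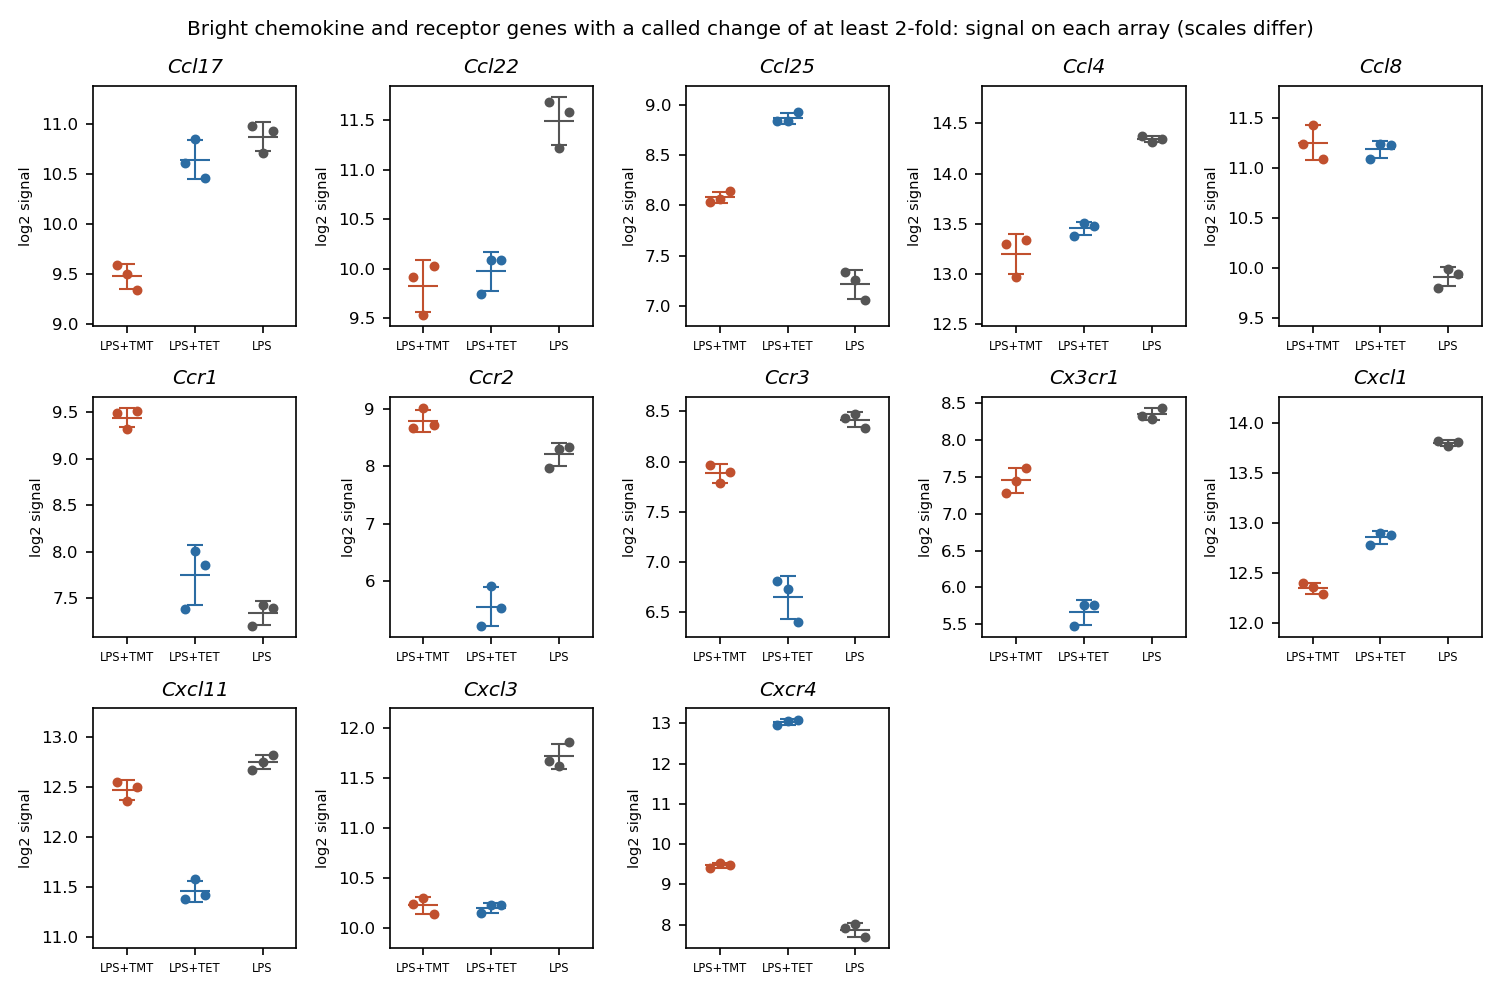
Log2 signal (y axis, scale differs between panels) on each array for the 13 bright members that passed with a change of at least 2-fold in a comparison; points are arrays, and bars show the mean and SD of 3 arrays. Cxcl3 and Ccl22 were at like levels under TMT and TET, whereas Cxcr4, Ccr2, Cx3cr1 and Ccr1 had 3 separate group levels or 1 group far from the others.

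The interferon-induced ligands of CXCR3, which attract activated T cells and NK cells, did not move together. Cxcl9 read 13.23, 13.11 and 13.21 under TMT and 13.15, 13.21 and 13.06 under TET, against 13.16, 13.08 and 13.16 with saline, and the 3 groups overlapped. Its changes were 0.05 and 0.01 with adjusted p of 0.75 and 0.92 (limma). Cxcl10 read 13.77, 13.57 and 13.76 under TMT and 13.42, 13.52 and 13.48 under TET, against 14.11, 14.13 and 14.21 with saline. Both groups lay below LPS, at −0.45 (SE 0.09, adjusted p = 0.0031) and −0.68 (SE 0.09, adjusted p = 1.3e-04). Cxcl11 read 12.54, 12.36 and 12.50 under TMT and 11.38, 11.58 and 11.42 under TET, against 12.67, 12.75 and 12.82 with saline. The TET arrays were lowest, 2.44-fold below saline (log2 −1.29, SE 0.09, adjusted p = 2.4e-06), while the TMT arrays, also below all LPS arrays, gave −0.28 with an adjusted p of 0.0503 that fell under the threshold in several other settings. RefSeq lists Cxcl11 as a transcribed pseudogene in the C57BL/6J assembly, so its signal is one of RNA. The window upstream of Cxcl10 (chr5:92348890-92349139, minus strand) is shown because it holds both words searched, GAAANNGAA, a loose form of the interferon-stimulated response element, 213 to 205 bases before the start, and the kappaB word 159 to 151 bases before it, both in capitals.
Cxcl10: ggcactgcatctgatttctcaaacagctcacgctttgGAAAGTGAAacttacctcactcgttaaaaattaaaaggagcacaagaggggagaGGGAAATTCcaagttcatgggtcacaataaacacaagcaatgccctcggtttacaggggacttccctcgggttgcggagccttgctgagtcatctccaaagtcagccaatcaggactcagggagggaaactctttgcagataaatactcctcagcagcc
The response element word was found in 6 of the 37 windows (Cxcl9, Cxcl10, Cxcl14, Ccl1, Ccl3 and Ccr2) and in 8.18% of all genes. The windows of Cxcl9 and Ccl1, not printed, also held both words, and these genes passed in neither comparison.

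Of the 3 monocyte-attracting ligands of CCR2, all bright, Ccl2 and Ccl7 fell under TET (41.3% of all bright genes fell) and none passed under TMT. Ccl2, the main signal that calls monocytes out of bone marrow, read 12.84, 12.64 and 12.93 under TMT and 12.13, 12.39 and 12.04 under TET, against 13.05, 12.85 and 13.13 with saline. The TMT arrays overlapped the LPS arrays and the TET arrays did not. The changes were −0.21 (adjusted p = 0.28) and −0.83 (SE 0.12, adjusted p = 3.5e-04). Its neighbour Ccl7 read 12.87, 12.53 and 12.80 under TMT and 11.99, 12.20 and 12.04 under TET, against 12.90, 12.63 and 12.78 with saline, with changes of −0.04 (adjusted p = 0.88) and −0.69 (SE 0.12, adjusted p = 7.4e-04). The third ligand, Ccl12, passed in neither comparison (−0.05 and −0.09).

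Among the CC ligands that signal through CCR1 and related receptors, Ccl3 and Ccl4 fell and Ccl5 did not pass. Ccl4 read 13.29, 12.97 and 13.33 under TMT and 13.38, 13.51 and 13.47 under TET, against 14.38, 14.31 and 14.34 with saline. No treated array reached the LPS range, and the changes were −1.15 (SE 0.11, adjusted p = 2.3e-05) and −0.89 (SE 0.11, adjusted p = 7.5e-05). Ccl3, next to Ccl4 on chromosome 11, read 13.73, 13.42 and 13.70 under TMT and 14.08, 14.11 and 14.08 under TET, against 14.41, 14.41 and 14.40 with saline. It fell by 0.79 under TMT (SE 0.10, adjusted p = 1.5e-04) and by 0.32 under TET (SE 0.10, adjusted p = 0.020); the TET call was lost when any 1 LPS array was left out, with an adjusted p of up to 0.058. Ccl5, which attracts T cells and monocytes, read 14.38, 14.29 and 14.40 under TMT and 14.12, 14.23 and 14.16 under TET, against 14.21, 14.20 and 14.24 with saline. Its changes were 0.14 (95% interval −0.04 to 0.32, adjusted p = 0.26) and −0.05 (−0.22 to 0.13, adjusted p = 0.66). These signals lay near the top of the table's range of 2.05 to 14.8. Ccl6 passed in neither comparison on the probe set used (0.25 and 0.19), but its second probe set rose in both (0.47 and 0.33), as did the mean over the 2 (0.36 and 0.26, adjusted p = 0.0024 and 0.0094). Ccl9 fell under TET alone by 0.21 (adjusted p = 0.041), a call lost in 8 of the 9 fits that leave out 1 array. The second Ccl9 probe set gave −0.48 under TET (limma, adjusted p = 0.018 over all probe sets).

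Ccl17 and Ccl22, neighbours on chromosome 8, encode the ligands of CCR4, which draw type 2 helper and regulatory T cells. Ccl22 read 9.92, 9.53 and 10.03 under TMT and 9.75, 10.09 and 10.09 under TET, against 11.68, 11.22 and 11.58 with saline. It was 3.18-fold lower under TMT (log2 −1.67, SE 0.17, adjusted p = 3.6e-05) and 2.86-fold lower under TET (−1.52, SE 0.17, adjusted p = 4e-05). Ccl17 read 9.59, 9.51 and 9.34 under TMT and 10.62, 10.85 and 10.46 under TET, against 10.98, 10.71 and 10.93 with saline. Only the TMT arrays stood apart from saline, 2.63-fold lower (−1.39, SE 0.12, adjusted p = 1.6e-05), and the TET change of −0.23 had an interval of −0.51 to 0.04 (adjusted p = 0.14). That TET change passed when TET replicate 2 was left out, at −0.33 with an adjusted p of 0.044. Cx3cl1, which lies between these genes and encodes the membrane-bound ligand fractalkine, was dim and fell with both agents (−1.08 and −0.65, adjusted p = 3.1e-05 and 5.7e-04). Of its 4 probe sets, 3 fell under TMT and 1 under TET, where the changes ran from −0.65 to 0.08.

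Ccl8 and Ccl25 were the 2 ligands among the bright members that rose, and both rose with each compound. Ccl8, a ligand that in the mouse acts on CCR8, read 11.24, 11.43 and 11.09 under TMT and 11.09, 11.24 and 11.23 under TET, against 9.81, 9.99 and 9.95 with saline. Every treated array lay above every LPS array, 2.53-fold (log2 1.34, SE 0.11, adjusted p = 8e-06) and 2.42-fold (1.27, SE 0.11, adjusted p = 6.5e-06). Ccl25, the gut and thymus ligand of CCR9, read 8.04, 8.07 and 8.14 under TMT and 8.84, 8.84 and 8.93 under TET, against 7.33, 7.26 and 7.05 with saline. Its changes were 0.87 (SE 0.09, adjusted p = 6.7e-05) and 1.66 (SE 0.09, adjusted p = 4.4e-07), and its other probe set gave 0.61 and 1.39. Of the bright ligands not yet named, Cxcl16, a membrane-bound ligand of CXCR6, passed in neither comparison (0.22 and 0.10, adjusted p = 0.053 and 0.28, limma). All treated arrays lay above all LPS arrays, and the TMT change passed in several other settings. The Cxcl16 probe set used may bind related transcripts, and the other one gave 0.01 and −0.07. Cxcl14 read 9.03, 9.55 and 9.09 under TMT and 10.23, 9.74 and 9.98 under TET, against 9.74, 9.74 and 9.83 with saline, and passed under TMT alone (−0.55, adjusted p = 0.024). That call was lost in 5 of the 9 fits that leave out 1 array, namely without any 1 LPS array or without TMT replicate 1 or 3 (adjusted p up to 0.10). The second Cxcl14 probe set fell under both compounds (−1.48 and −0.87), and the mean over both turned the TET change to −0.33 (adjusted p = 0.037).

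All 5 bright receptor genes passed in both comparisons, where 46.2% of all bright genes passed under TMT and 64.9% under TET; the calls of Ccr1 under TET and of Ccr2 under TMT were lost in most fits that leave out 1 array. Cxcr4, the receptor for CXCL12 that holds leukocytes in bone marrow, had the largest change of any member. It read 9.42, 9.54 and 9.47 under TMT and 12.95, 13.06 and 13.09 under TET, against 7.91, 8.02 and 7.68 with saline, so the 3 groups were wholly separate. It was 3.05-fold higher under TMT (log2 1.61, SE 0.10, adjusted p = 2.1e-06) and 35.8-fold higher under TET (5.16, SE 0.10, adjusted p = 1e-09). Its ligand gene Cxcl12 was dim, with means of 5.52 under TMT, 5.86 under TET and 5.41 with saline, and rose under TET alone (0.45, adjusted p = 0.0065); averaged over its 3 probe sets the change was 0.10 and did not pass.

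The CC receptor genes on chromosome 9 went different ways. Ccr1, an inflammatory receptor of monocytes and neutrophils, read 9.50, 9.33 and 9.51 under TMT and 7.38, 8.01 and 7.86 under TET, against 7.20, 7.43 and 7.40 with saline. It was 4.29-fold higher under TMT (2.10, SE 0.15, adjusted p = 4.5e-06), and the TET arrays overlapped the LPS arrays. The TET change of 0.41 had an adjusted p of 0.046 and was lost in 8 of the 9 fits that leave out 1 array (0.28 to 0.59, adjusted p up to 0.15); the other Ccr1 probe set gave 2.72 and 1.18. Ccr2, the receptor of inflammatory monocytes for CCL2, read 8.66, 9.02 and 8.72 under TMT and 5.22, 5.91 and 5.52 under TET, against 7.98, 8.31 and 8.35 with saline. All TMT arrays were above saline and all TET arrays below it. The TET fall was 6.32-fold (−2.66, SE 0.18, adjusted p = 1.2e-06) and appeared on all 4 Ccr2 probe sets (−2.66 to −0.76). The TMT rise was smaller (0.59, SE 0.18, adjusted p = 0.031), was called on 2 of the 4 probe sets and was lost in 5 of the 9 fits that leave out 1 array (without any 1 LPS array or without TMT replicate 2 or 3, adjusted p up to 0.13).

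Ccr3, best known as the eotaxin receptor of eosinophils, read 7.97, 7.78 and 7.90 under TMT and 6.81, 6.73 and 6.40 under TET, against 8.44, 8.48 and 8.33 with saline. Both treated groups lay below saline, at −0.53 (SE 0.12, adjusted p = 0.0059) and −1.77 (SE 0.12, adjusted p = 1.1e-06). Cx3cr1, the fractalkine receptor of resident macrophages and patrolling monocytes, read 7.28, 7.44 and 7.63 under TMT and 5.47, 5.76 and 5.76 under TET, against 8.33, 8.28 and 8.43 with saline. The 3 groups did not overlap, and the falls were 1.86-fold under TMT (−0.90, SE 0.12, adjusted p = 2.4e-04) and 6.43-fold under TET (−2.68, SE 0.12, adjusted p = 7.2e-08). The second Cx3cr1 probe set fell too (−0.94 and −1.31). For Ccr2, Ccr3 and Cx3cr1 the TET means of 5.55, 6.65 and 5.66 lay below the threshold for bright genes; the table marks no background level, so these folds may be understated.

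Under TMT 4 of the 25 dim members fell and 1 rose, that is 16.0% and 4.0%, against 4.72% and 4.62% of all dim genes. The falls were those of Cx3cl1, Cxcl5, Ccl24 and Cxcr3, and all 4 of these genes fell under TET as well. Cxcr3, the T cell receptor for CXCL9 and CXCL10, read 5.01, 4.99 and 5.07 under TMT and 6.00, 5.48 and 5.83 under TET, against 6.18, 6.32 and 6.18 with saline. Both groups were below saline (−1.20, adjusted p = 4.7e-05, and −0.46, adjusted p = 0.012), and the TET call narrowly failed without LPS replicate 2 (adjusted p = 0.0503). Ccl24, an eotaxin, read 6.27, 6.05 and 6.27 under TMT and 6.67, 6.06 and 6.32 under TET, against 7.05, 6.93 and 7.04 with saline (−0.81 and −0.66, adjusted p = 0.0017 and 0.0036). The single rise under TMT was that of Ccr7, the receptor that guides dendritic cells to lymph nodes (0.52, adjusted p = 0.039); it did not pass without LPS replicate 1 or 3 or without any 1 TMT array (adjusted p up to 0.15) or after a second quantile normalization (adjusted p = 0.059).

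Under TET 8 dim members rose and 4 fell, that is 32.0% and 16.0%, against 31.2% and 5.62% of all dim genes. The median change of the dim members was 0.20, the same as that of all dim genes. The rises were of 0.39 to 0.81 and concerned Cxcl13, Xcr1, Ccl11, Ccr9, Ccl27a, Cxcl12, Xcl1 and Ccr4, among them the B cell attractant Cxcl13 and the eotaxin Ccl11. After median centring or a second quantile normalization, 5 dim members rose and 5 fell. Of the 8 rises, Xcr1, Xcl1 and Ccr4 were lost in 5 to 8 of the 9 fits that leave out 1 array (adjusted p up to 0.16), and Ccr9 and Cxcl12 when probe sets were averaged. The 12 dim members that passed in neither comparison were Ccl1, Ccl20, Ccl28, Cxcl15, Cxcl17, Ccr6, Ccr8, Ccr10, Cxcr2, Cxcr5, Cxcr6 and the scavenging receptor Ackr3. Their changes ran from −0.16 to 0.09 under TMT and from −0.26 to 0.32 under TET, and values this low were not shown to be above background.

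**Figure D3:**
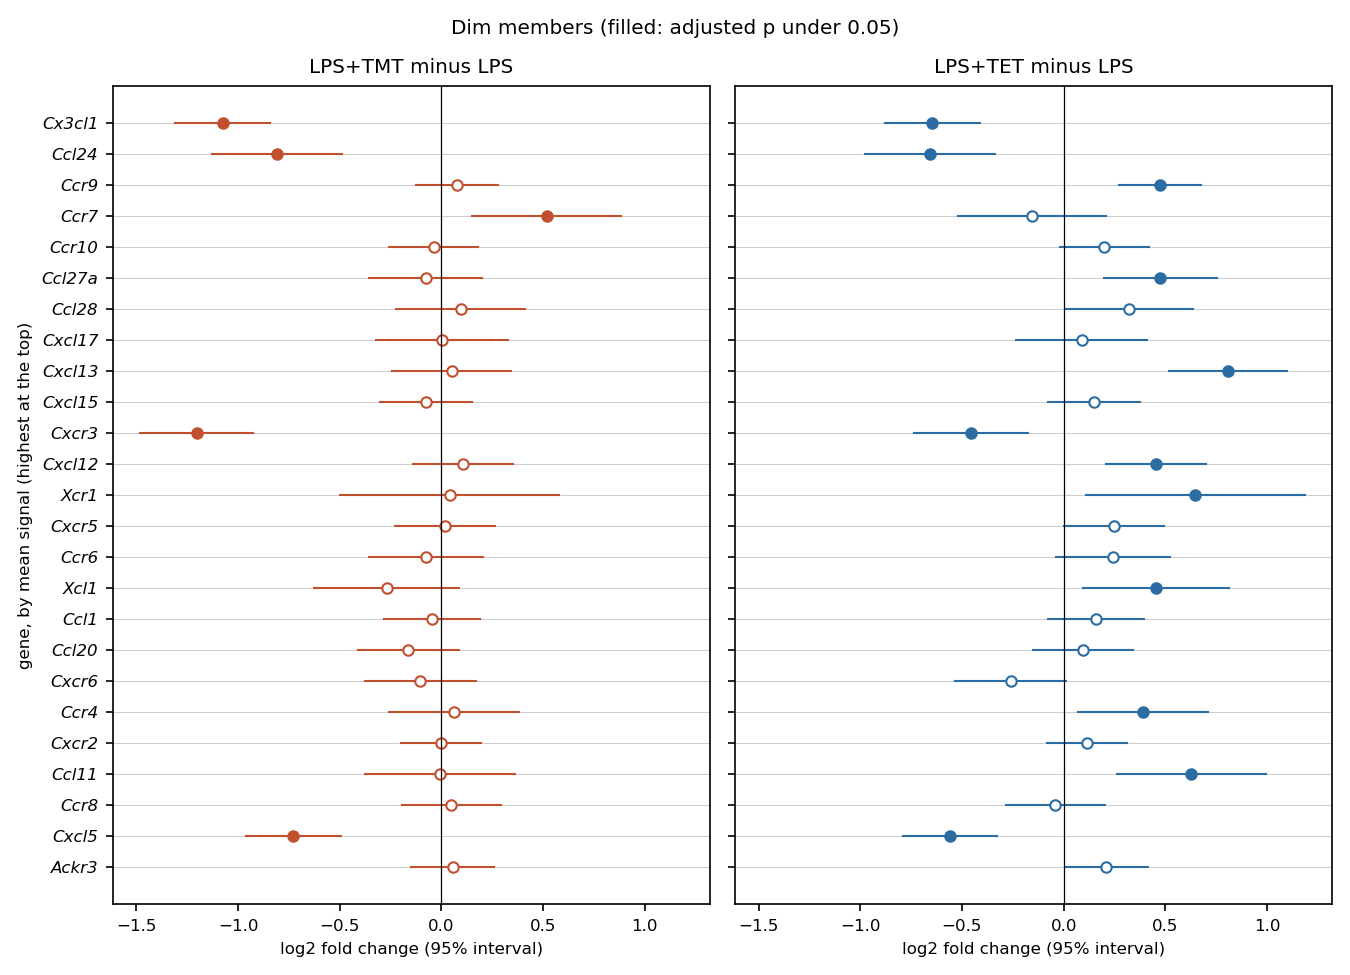
Log2 fold changes of the 25 dim members (x axis, 95% intervals from the limma fit), LPS+TMT minus LPS on the left and LPS+TET minus LPS on the right, filled at an adjusted p under 0.05. Cx3cl1, Ccl24, Cxcr3 and Cxcl5 lie left of 0 in both panels, and most other members lie right of 0 under TET, where the median was 0.20 for all dim genes too.

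Of the members, 18 had several probe sets naming them alone. In no member were probe sets called in opposite directions under TMT, and under TET this occurred for Ccr9 alone, where 2 of 5 probe sets rose and 1 fell. The probe sets of Cxcl1, Ccr2, Cx3cr1, Cxcl11 and Ccl25 each moved in 1 direction under TET. Cxcl13 rose under TET on the probe set used (0.81) and not on its other one (0.02).

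**Figure D4:**
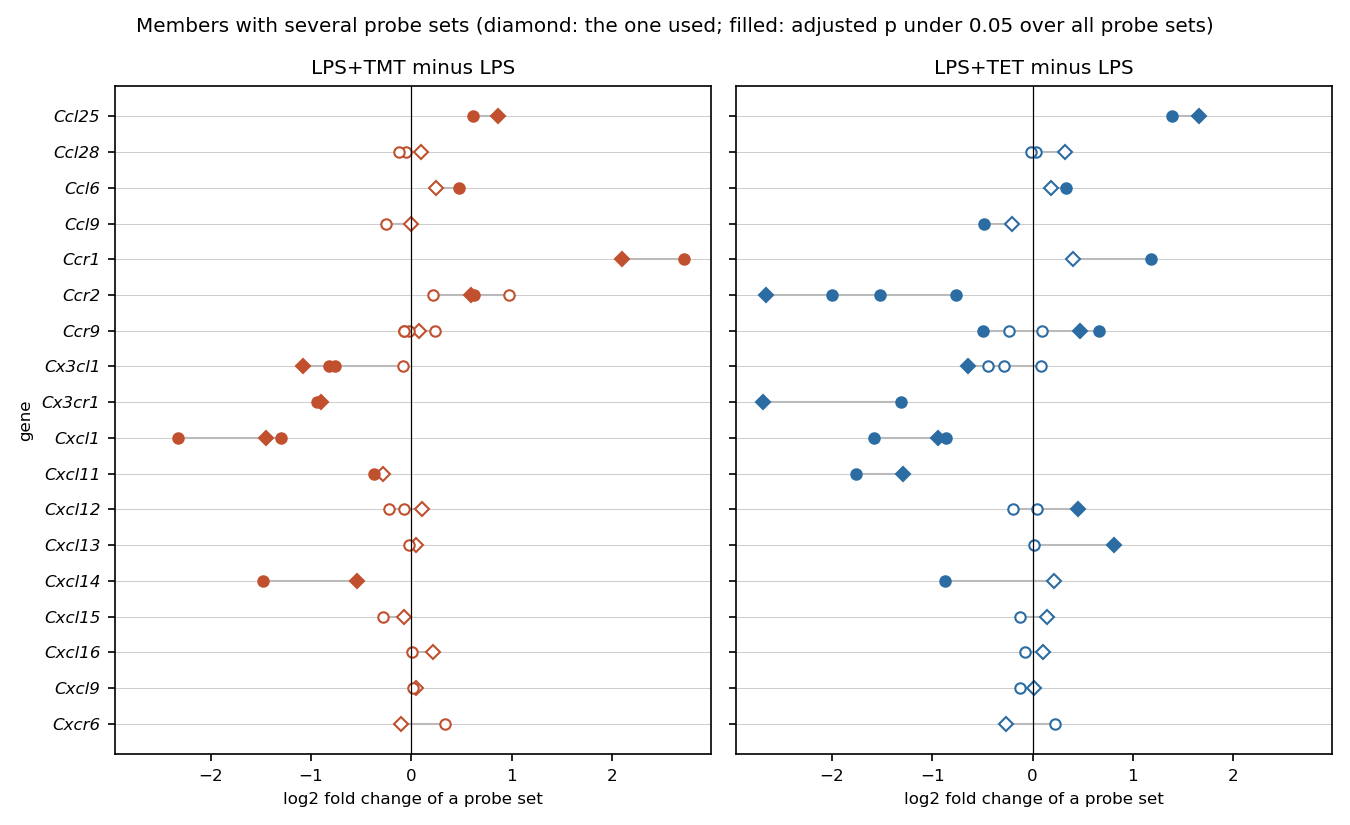
Log2 fold change of each probe set (x axis) for the 18 members with several, LPS+TMT minus LPS on the left and LPS+TET minus LPS on the right; diamonds mark the probe set used, and filled symbols had an adjusted p under 0.05 over all 45037 probe sets. The size of a change differed between probe sets of a gene, for example −2.68 and −1.31 for Cx3cr1 under TET, and Ccr9 had filled symbols on both sides of 0.

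Many chemokine genes arose by local duplication and sit side by side, and neighbours did not always change alike. In the row Ccl2, Ccl7, Ccl11, Ccl12, Ccl8, Ccl1 on chromosome 11, Ccl8 and the dim Ccl11 rose under TET (1.27 and 0.63). Ccl2 and Ccl7 fell there (−0.83 and −0.69). In the row Ccl5, Ccl9, Ccl6, Ccl3, Ccl4 on the same chromosome, Ccl3 and Ccl4 fell under TMT and the other 3 did not pass. Of the 6 neighbouring receptors on chromosome 9, Ccr1 rose under TMT (2.10) while Ccr3 fell (−0.53). All 3 genes of the row Ccl22, Cx3cl1, Ccl17 on chromosome 8 fell under TMT. Of all genes, 13.4% fell and 14.3% rose under TMT, and 23.4% fell and 27.4% rose under TET.

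**Figure D5:**
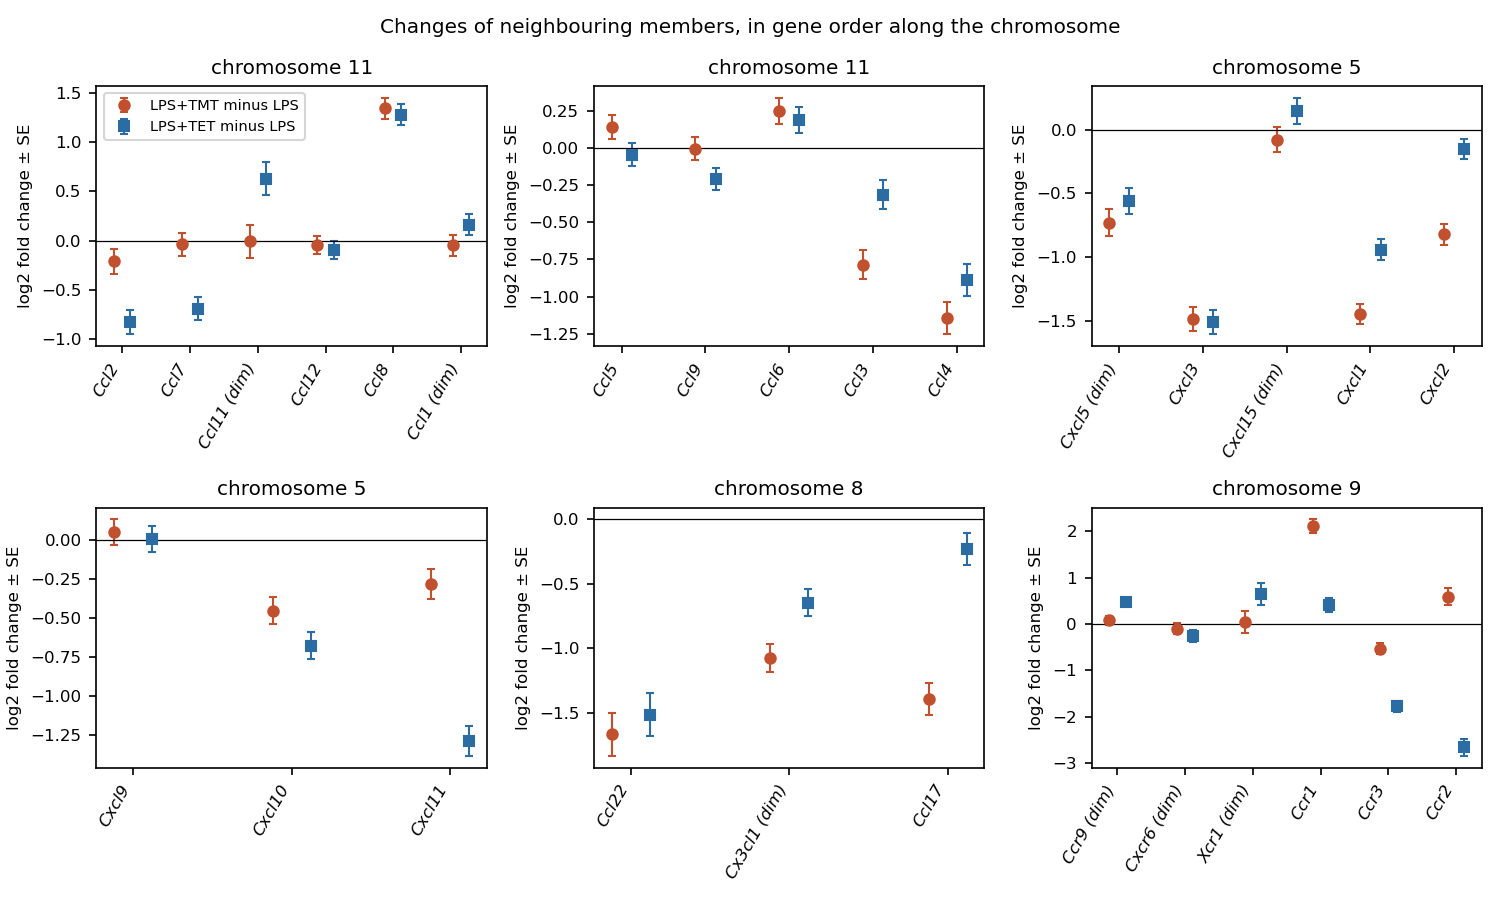
Log2 fold change with its SE (y axis, scale differs) for members that lie near each other, in RefSeq gene order along the chromosome, with LPS+TMT minus LPS as circles and LPS+TET minus LPS as squares. Ccl8 stands at 1.34 and 1.27 among neighbours at or below 0 or dim. Over both comparisons, Ccr1, Ccr3 and Ccr2 spread from 2.10 (Ccr1 under TMT) to −2.66 (Ccr2 under TET).

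Genes that act around chemokines were read from 5 lists. The 15 measured chemoattractant genes outside the symbol rule gave 3 rises and 2 falls under TMT and 3 rises and 6 falls under TET. Gpr183, an oxysterol receptor that positions lymphocytes, fell with both compounds (−1.79 and −1.96, adjusted p = 2.8e-06 and 7.2e-07). Cmklr1, the chemerin receptor, rose under TMT (1.99, adjusted p = 1.8e-05) and fell under TET (−0.96, adjusted p = 0.0014). Fpr2, a formyl peptide receptor, rose under TMT (0.83, adjusted p = 4.2e-05) and fell under TET (−0.25, adjusted p = 0.031), and the scavenging receptor gene Ackr4 fell under TET (−0.49, adjusted p = 5e-04).

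Of 19 genes that carry the signal downstream of chemokine receptors, 4 rose and 5 fell under TMT, and 1 rose and 9 fell under TET. Under TMT the Rac activators Elmo1 (−1.33) and Tiam1 (−2.24) fell and Pik3cg, a PI3 kinase that G proteins activate, rose (2.08). Under TET the G protein subunit gene Gng2 rose (1.09) while Plcb3, a phospholipase, and Dock2, the leukocyte Rac activator, fell (−0.87 and −0.77). Of 12 measured genes that switch the receptors off, 7 fell and 4 rose under TMT, and 6 fell and 2 rose under TET. Rgs10 (−1.78), Rgs1 (−1.54) and Rgs2 (−1.85), which shorten G protein signals, fell under TMT. Under TET the receptor kinase gene Grk3 (−2.14) and the arrestin gene Arrb1 (−1.64) fell and Rgs1 rose (1.04).

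The 10 proteases known to trim or shed chemokines gave 3 rises and 1 fall under TMT and 1 rise and 2 falls under TET. Mmp14 (0.96) and Mmp8 (0.55) rose and Mmp12 fell (−0.46) under TMT, while the sheddase genes Adam10 (−0.78) and Adam17 (−0.35) fell and Furin rose (0.24) under TET. In the list of 10 genes set up for regulators of chemokine mRNA decay, 2 rose and 5 fell under TMT, and 3 rose and 5 fell under TET. The list and its falls include Tnfaip3, which acts on NF-kappaB signalling rather than on mRNA decay. Zfp36l1, of the tristetraprolin family that marks AU-rich mRNAs for decay, rose with both compounds (1.51 and 1.66), and its relative Zfp36l2 rose by 1.62 under TET. Tnfaip3, an NF-kappaB target that restrains the pathway, fell with both (−0.84 and −0.93), as did the roquin gene Rc3h1 (−1.14 under TMT). Of the 66 list genes 59 were bright, and among all bright genes 22.1% fell and 24.1% rose under TMT, and 41.3% fell and 23.6% rose under TET. Beside those shares, 58.3% of the genes that switch receptors off fell under TMT and 50.0% under TET, and the signalling genes had 26.3% and 47.4% falling. Of the mRNA decay list, Tnfaip3 included, 50.0% fell under each compound. Of the proteases 10.0% and 20.0% fell, and of the chemoattractant genes 13.3% and 40.0%. The proteases include the dim genes Dpp4, Mmp2, Mmp9 and Ctsg, and the chemoattractant genes include the dim Ppbp, Ackr1 and Ackr2. None of these dim genes fell, and of all dim genes 4.72% fell under TMT and 5.62% under TET. The shares of the proteases and chemoattractant genes are therefore not directly comparable with those of all bright genes.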

How the data were processed

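Per the labels' protocols, RNA of 3 biological replicates a group was amplified (Nugen WT-Ovation Pico) and read on Affymetrix mouse arrays, 9 in all. Processing used RMA and affy, per the submitters' processing notes, and no version was given. The deposited values are log2 signals; the base was taken from their range. The table held 45037 probe sets, of which 34945 name 1 gene in the platform annotation, and 0 value columns without a sample. It holds no detection calls, and precision is limited by how many arrays there are. The doses of the organotins are in µM per the series design.

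Group means were estimated with limma 3.58.1 (R 4.3.3) for 18193 genes on all 9 arrays, so the 3 groups share each gene's estimate of spread (6 residual and 3.99 prior degrees of freedom). Its two-sided p-values received Benjamini-Hochberg adjustment over all genes in each of 2 comparisons, and a gene passed under 0.05. SE is the moderated standard error, and intervals are 95% intervals. The fit was tested on simulated data. Promoter windows and gene order are from RefSeq (GRCm38.p6), and windows were searched for the words on both strands.

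The members and lists were chosen with earlier results of these data known. Every member could be named. Array values are given for bright members that passed with at least 2-fold in a comparison and for the member with the highest mean in a role, and also for some others chosen after their values were seen. From each list outside the members, up to 3 bright genes with the smallest adjusted p in each comparison were named. Alternatives were leaving out each array, bright genes alone, a second quantile normalization, median centring, the mean over probe sets, omitting probe sets able to bind related transcripts, array weights, trended robust moderation, the 6 arrays of a comparison alone, a replicate block and a 1.5-fold minimum.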

Additional observations from a re-analysis of the deposited data

Results flagged for a closer look

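Ccr2 moved in opposite directions, with every TMT array above and every TET array below the LPS arrays (log2 changes 0.59 and −2.66). The Ccr2 rise under TMT was called on 2 of its 4 probe sets and lost in 5 of the 9 fits that leave out 1 array. Such opposite moves were seen for 8 of the genes named from the lists around chemokines, which were picked for small adjusted p. How many of all genes moved in this way was not counted, so nothing is read from the number. The receptor genes Cmklr1 (1.99 under TMT and −0.96 under TET) and Fpr2 (0.83 and −0.25) lay above the LPS arrays under TMT and below them under TET, as did the protease genes Mmp14 (0.96 and −0.22) and Mmp8 (0.55 and −0.32). The reverse held for the G protein subunit gene Gng2 (−0.94 and 1.09), for Rgs1 (−1.54 and 1.04) and Rgs2 (−1.85 and 0.79), and for the elastase gene Mmp12 (−0.46 and 0.29). The TET changes of Mmp14, Mmp8 and Mmp12 did not pass the adjusted threshold. List genes not named above also passed in opposite directions, for example Arrb2 (1.22 under TMT and −0.63 under TET) and Rc3h2 (−0.84 and 0.75). In each case the difference between the compounds was not tested, since their doses differed, and both comparisons use the same LPS arrays. With 3 arrays a group, single outlying arrays were not tested for.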

How the results depend on the processing

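Of the 50 members, 21 passed under TMT and 29 under TET; leaving out 1 array gave 18 to 23 and 22 to 27. For the bright members (16 and 17) the ranges were 14 to 18 and 14 to 16, and for the 66 genes of the 5 lists (36 and 38) they were 31 to 38 and 33 to 40. Of the members that passed, 18 under TMT and 22 under TET kept their call without any 1 array. A minimum of 1.5-fold left 19 members and 24 list genes under TET. Fitting bright genes alone, which tests 25 members, left 17 under TET. The 1 gene result that changed direction was Cxcl14 under TET, at −0.33 with the mean over probe sets. Of 76 results on single genes, 51 kept their call in every alternative and 25 changed it in at least 1. Samples with the same replicate number did not deviate together: correlations of their deviations from the group means were −0.15 to 0.31, and 0 of the 9 arrays correlated best with its own number in both other groups. With the replicate number as a block, 21 members passed under TMT and 27 under TET, with 16 and 16 of the bright members and 35 and 35 of the list genes. Median centring gave 8 rises and 19 falls among all members under TET, and a second quantile normalization gave 10 and 18, against 12 and 17 in the fit reported. Signals of dim members were not shown to be above background, so a miss among them does not show that a gene is absent or did not change.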
